A study of Homo sapiens with 8 samples.

Results

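The genes described here are 10 members of the machinery that writes, reads and erases N6-methyladenosine (m6A) on messenger RNA. They were chosen by name from the deposited table of translation efficiency (TE), and all 10 were among its 11244 genes. The writers were METTL3, METTL14, WTAP and METTL16, the readers were YTHDF1, YTHDF2, YTHDF3 and YTHDC1, and the erasers were FTO and ALKBH5. Their levels were compared between cells with METTL5 intact (METTL5-WT, the wild type) and cells in which CRISPR/Cas9 had removed early METTL5 exons (METTL5-KO, the knockout). METTL5 methylates an adenosine of 18S ribosomal RNA and is not itself a member. Cells of both genotypes were treated with cycloheximide, which stalls ribosomes on messages, before lysis. Each lysate gave an input RNA library and, after micrococcal nuclease digestion, a library of ribosome-protected fragments (RPF, the footprints of ribosomes). There were 2 replicates of each genotype and 8 libraries in 4 groups. Cell lines of either genotype were grown from isolated clones, and the sources used here do not say which clone gave which replicate or whether replicates were separate cultures, so clone and genotype cannot be told apart and p-values measure only the spread between these libraries.

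Most m6A on mRNA is placed in the nucleus by a complex whose catalytic subunit is METTL3. METTL14 is its partner without catalytic activity of its own and helps hold the RNA, and WTAP anchors the pair in nuclear speckles. METTL16 acts alone on a small set of structured RNAs, among them the message of MAT2A, which makes the methyl donor. The YTH domain binds the methylated base: YTHDC1 does so in the nucleus, and the closely related YTHDF1, YTHDF2 and YTHDF3 do so in the cytoplasm, where YTHDF2 recruits the CCR4-NOT deadenylase. FTO and ALKBH5 are oxygenases that remove the methyl group.

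The sequences below show what the mRNA writers have in common with the enzyme removed in these cells. Each line holds 36 coding bases of the annotated canonical transcript (GENCODE release 44, hg38, written 5′ to 3′), and the capitals mark the 4 codons of the motif that forms the active site in this enzyme class.
METTL3: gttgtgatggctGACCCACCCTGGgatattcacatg
METTL14: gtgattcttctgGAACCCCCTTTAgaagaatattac
METTL16: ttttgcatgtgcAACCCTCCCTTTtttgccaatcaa
METTL5: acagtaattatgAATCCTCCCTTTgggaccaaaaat
The METTL3 stretch is in exon 6 (chr14:21500593-21500628, minus strand), the METTL14 stretch in exon 7 (chr4:118697240-118697275, plus strand), the METTL16 stretch in exon 5 (chr17:2467773-2467808, minus strand) and the METTL5 stretch in exon 3 (chr2:169821099-169821134, minus strand). METTL16 and METTL5 encode the same 4 residues there, whereas METTL14 carries the altered motif of an inactive partner.

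The input libraries held 10710226 to 15307257 counts. The RPF libraries held 3970779 and 4592443 reads in the wild type versus 8626705 and 9255921 in the knockout, so the footprint values of METTL5-WT rest on fewer reads. Although the labels name HepG2, a liver cancer line, the 8 liver markers examined (ALB, AFP, APOA1, APOB, TTR, SERPINA1, FGB and HNF4A) summed to only 3 to 12 counts per input library, 3 of them had no count in any library, and 0 of 8 were in the TE table. The 5 markers of blood and endothelium summed to 4 to 11 counts. The cells are therefore called here by their label only. METTL5 had 490 and 542 input counts in the wild type versus 208 and 151 in the knockout, and 158 and 226 against 41 and 21 footprints, a log2 fold change (METTL5-KO minus METTL5-WT throughout) of −1.86 in input by edgeR (adjusted p = 7.17e-08) and −3.56 in RPF by limma (adjusted p = 1.95e-07).

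All 10 members were expressed in every library, and their levels per length spanned a wide range. Input levels are given as RPKM (reads per kilobase of exon, scaled to the total of the library), averaged over the 4 input libraries. ALKBH5 was highest at 92.3, followed by YTHDF3 at 26.2 and YTHDF1 at 24.2, and the ranges of the last pair over libraries overlapped. Their order differed by genotype: YTHDF1 was above YTHDF3 in both wild-type libraries (29.7 and 29.7, versus 26.5 and 27.9) and below it in both knockout libraries (19.5 and 18.1, versus 26.6 and 23.8). YTHDF2 (14.3) and WTAP (12.6) formed the next overlapping pair. METTL16 (8.85), METTL3 (7.98) and YTHDC1 (7.58) were lower, each overlapping the next, and YTHDC1 was above METTL3 in both wild-type libraries and below it in both knockout libraries. METTL14 (3.58) and FTO (3.12) were lowest and overlapped, the annotated exons of FTO covering 21379 bases in all, which lowers its value per kilobase.

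Footprint levels, as RPKM of RPF reads over the coding sequence, gave another order. ALKBH5 (72.1) and YTHDF3 (53.3) were again highest, with overlapping ranges over all 4 libraries, although ALKBH5 was well above YTHDF3 in the wild type (90.6 and 84.4, versus 54.4 and 52.7). From METTL16 (44.4) through METTL3 (41.4), FTO (39.3), YTHDF1 (34.9), YTHDC1 (31.1) and YTHDF2 (30.3) to WTAP (27.1), each member overlapped the next. METTL14 was lowest at 11.5, separated from WTAP, with 8.21 to 13.8 over the 4 libraries. The footprint level of METTL14 was 0.247 and 0.335 of that of its partner METTL3 in the wild type, compared with 0.327 and 0.212 in the knockout, so the genotypes overlapped in this ratio. Divided by exon length in place of coding length, only 2 of 10 members kept their place.

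**Figure D1:**
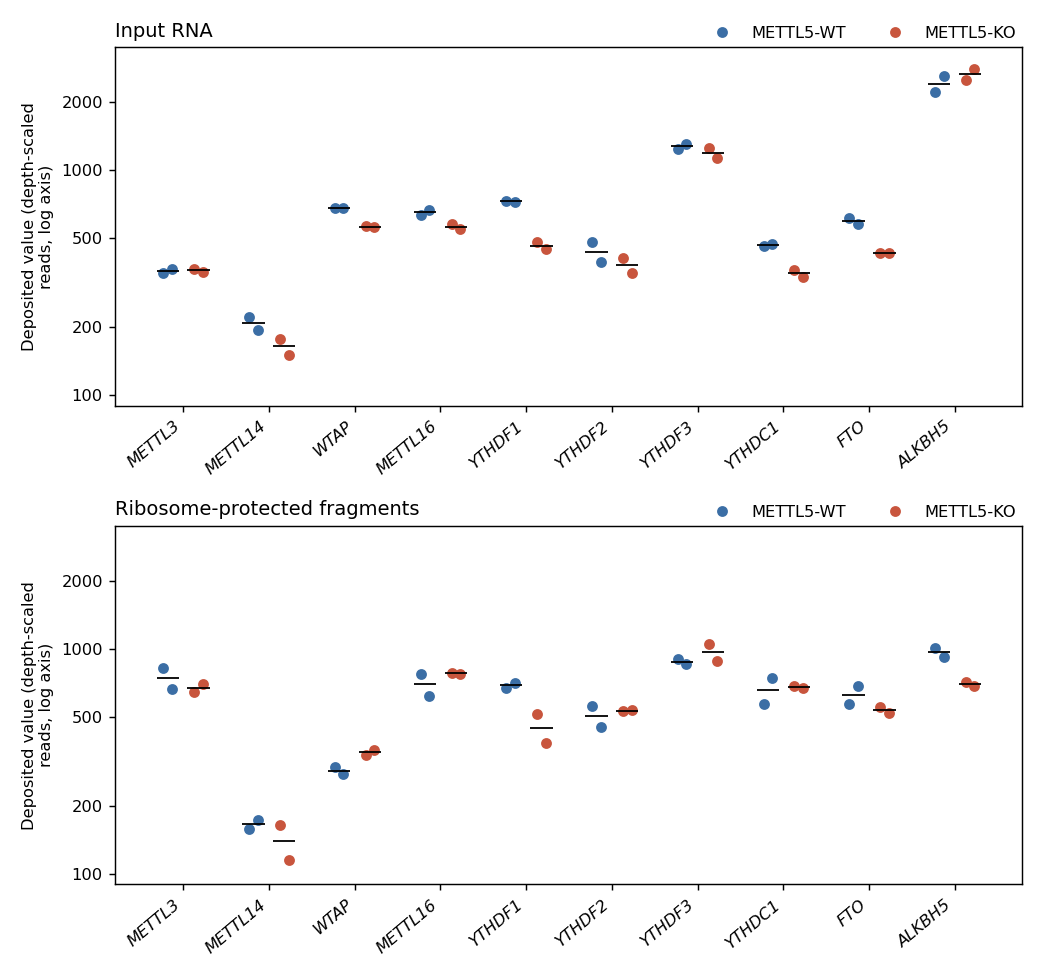
Deposited depth-scaled reads (log axis) of the 10 members in input RNA and in RPF; each point is a library, blue METTL5-WT and red METTL5-KO, and bars are means of 2. YTHDF1, YTHDC1 and FTO sit lower in METTL5-KO in the input panel, and YTHDF1 and ALKBH5 in the RPF panel.

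In input RNA, 3 of 10 members fell in METTL5-KO and 0 rose (edgeR quasi-likelihood, adjusted p under 0.05). Over all 14054 genes tested, 22.4% were called in either direction, 11.8% higher and 10.6% lower. The median log2 fold change of the 10 members was −0.25, against −0.00 for all genes tested. Most members lay in classes of coding G and C content (described below) whose all-gene input medians were −0.14 to −0.04. The part of base composition in the member median was not tested. In this bulk RNA a lower level in all cells and a low level in some of them cannot be told apart. The members that fell were the cytoplasmic reader YTHDF1, the nuclear reader YTHDC1 and the eraser FTO, and DESeq2 called the same 3, with 15.6% of all genes called and 7.65% called lower. Values per library below are the deposited depth-scaled reads, in the order replicate 1 and replicate 2.

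YTHDF1 (ENSG00000149658, chr20:63195429-63216139, minus strand), which has been tied to translation of its bound messages, had 726 and 725 input reads in the wild type, compared with 477 and 445 in the knockout. Both knockout libraries were below both wild-type libraries, with a log2 fold change of −0.67 ± 0.12 (SE, n = 2 per genotype) and an adjusted p of 0.000233 by edgeR. FTO (ENSG00000140718, chr16:53701692-54158512, plus strand) had 611 and 573 reads in the wild type, compared with 427 and 429 in the knockout, again without overlap. Its log2 fold change was −0.48 ± 0.12 (edgeR adjusted p = 0.00581). YTHDC1 (ENSG00000083896, chr4:68310387-68350090, minus strand) had 460 and 472 reads against 360 and 336, also without overlap. Its log2 fold change was −0.43 ± 0.13 (edgeR adjusted p = 0.0158). The call of YTHDC1 was lost without either METTL5-WT library (adjusted p = 0.231 and 0.274), as was that of FTO (0.25 and 0.114).

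The 4 writers did not pass the test in input RNA. METTL3 was closest to no change at −0.00 ± 0.13 (edgeR adjusted p = 0.99), with 348 and 365 reads in the wild type, compared with 364 and 353 in the knockout. METTL14 gave −0.36 ± 0.16 (0.112), WTAP −0.28 ± 0.12 (0.0888) and METTL16 −0.23 ± 0.12 (0.185). In each of these 3 the knockout libraries lay below the wild-type libraries without overlap, as did those of 63.3% of all genes in one direction or the other. Of the remaining members, YTHDF2 gave −0.22 ± 0.14 (0.281), YTHDF3 −0.11 ± 0.12 (0.53) and ALKBH5 0.13 ± 0.12 (0.498), and their libraries overlapped between genotypes. Without METTL5-KO replicate 1, 8 of 10 members were called (ALKBH5 higher, the others lower), and without either METTL5-WT replicate only YTHDF1 was. Of all genes, 37.4% were called without METTL5-KO replicate 1, and 8.13% and 9.11% without METTL5-WT replicates 1 and 2.

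The input changes of YTHDF1 and FTO were close to those of the genes beside them on the chromosome. For each member the 20 tested genes on either side were taken, and their median log2 fold change in input was recorded. Around YTHDF1 on chromosome 20 (genes within chr20:61953469-63969930) it was −0.79, 26 of 40 neighbours were called lower and 2 higher, and only 0.142% of all genes had a lower neighbour median. Around FTO on chromosome 16 (within chr16:46955362-57083531) it was −0.56, with 25 of 40 called lower and 3 higher, and 1.02% of genes had a lower neighbour median. YTHDF1 lay 0.13 and FTO 0.08 above their neighbours on the log2 scale. YTHDC1 differed in this respect. Its neighbours on chromosome 4 had a median of −0.16, and 12.8% of genes had a lower neighbour median. Of these 40 neighbours 8 were called lower and 5 higher, and YTHDC1 lay 0.28 below their median. For the other 7 members the neighbour median was between −0.11 and 0.13. The part of these regional shifts in the changes of YTHDF1 and FTO was not tested.

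**Figure D2:**
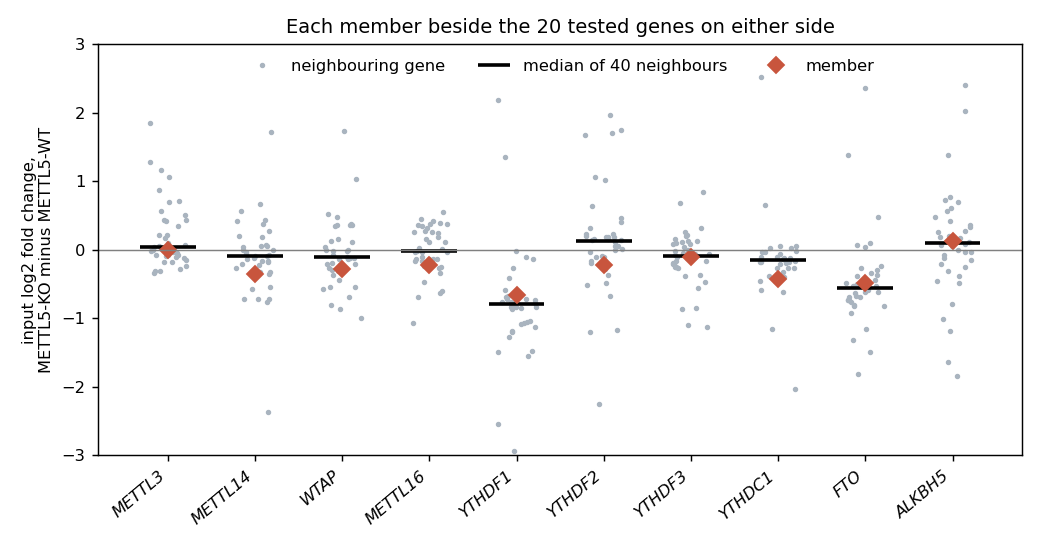
Input log2 fold change (METTL5-KO minus METTL5-WT) of each member (red diamond), of the 20 tested genes on either side of it (grey points, 10 beyond the axis) and of their median (black bar). YTHDF1 and FTO sit near neighbour medians of −0.79 and −0.56, while the other 8 medians lie between −0.16 and 0.13.

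Among footprints, 2 of 10 members fell and 0 rose (limma on log2(value + 1), a scale that understates changes of low genes). Of 11240 genes tested, 29.3% were called and 13.1% were called lower, and edgeR on recovered reads called 27.8% and 13.5% lower. The median of the members was −0.04, against 0.02 for all genes. YTHDF1 had 670 and 706 scaled RPF reads in the wild type, compared with 514 and 380 in the knockout. The genotypes did not overlap, with a log2 fold change of −0.64 ± 0.14 (limma adjusted p = 0.00261, edgeR on recovered reads 0.00103). It stayed below the threshold when any lysate was left out (adjusted p of at most 0.047), while the log2 fold change was −0.85 without METTL5-KO replicate 1 and −0.42 without METTL5-KO replicate 2. ALKBH5 (ENSG00000091542, chr17:18183078-18209954, plus strand) had 1010 and 919 scaled RPF reads in the wild type, compared with 709 and 681 in the knockout. The log2 fold change was −0.47 ± 0.11 (limma adjusted p = 0.00431, edgeR 0.00312), and without METTL5-WT replicate 1 the adjusted p was 0.0532.

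The other 8 members did not pass the test in RPF. WTAP had 299 and 277 scaled RPF reads in the wild type, compared with 339 and 357 in the knockout, without overlap, a log2 fold change of 0.27 ± 0.13 (limma adjusted p = 0.122). FTO gave −0.22 ± 0.13 (0.22), also without overlap, a pattern shared by 61.4% of all genes. The remaining 6 overlapped between genotypes. METTL14, the member with the fewest footprints (67 and 87 reads in METTL5-WT, 137 and 104 in METTL5-KO before scaling), gave −0.27 ± 0.21. METTL3 gave −0.14 ± 0.13, METTL16 0.17 ± 0.13, YTHDF3 0.14 ± 0.11, YTHDF2 0.08 ± 0.15 and YTHDC1 0.06 ± 0.14.

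**Figure D3:**
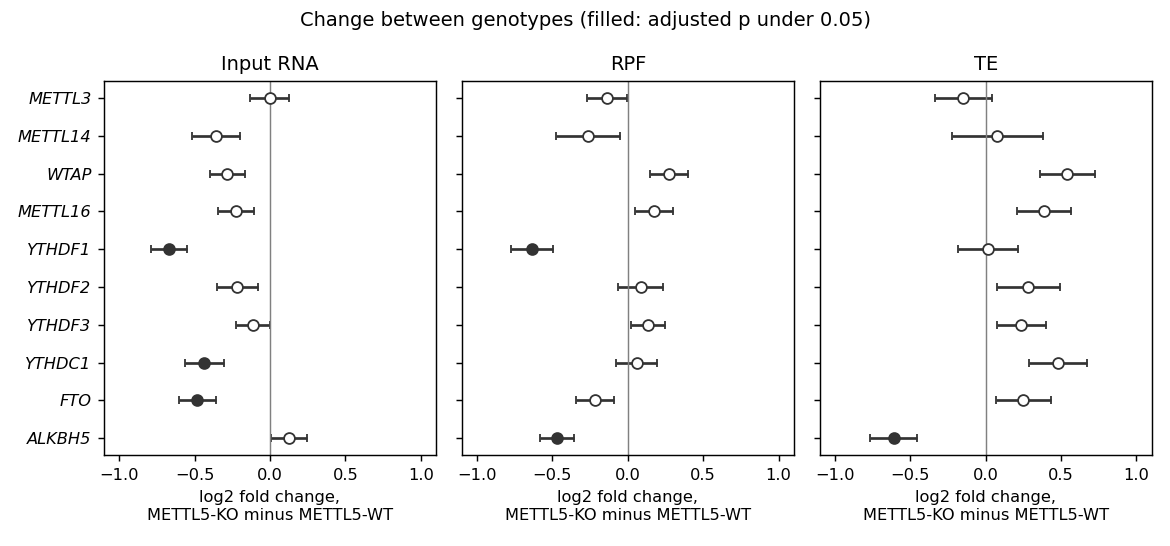
Log2 fold change between genotypes of the 10 members in input RNA, RPF and TE; bars are 1 SE (n = 2 per genotype) and filled points passed an adjusted p under 0.05. Filled points are YTHDF1, YTHDC1 and FTO in input, YTHDF1 and ALKBH5 in RPF, and ALKBH5 in TE, all below 0.

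The 3 cytoplasmic readers were set beside each other. Footprint-length stretches shared between their coding sequences were rare, while matches elsewhere in the genome were not examined. Of the 28-base windows of the YTHDF1 coding sequence, 1.52% differed by at most 2 bases from a window of another YTH member, against 0.643% for YTHDF2 and 0.926% for YTHDF3, and 0% for YTHDC1. The footprints had been mapped with at most 2 mismatches and to 1 place. The closest windows of YTHDF1 (chr20:63202739-63202766, minus strand, exon 4) and YTHDF2 (chr1:28743507-28743534, plus strand, exon 4) are shown to give the scale of this likeness, with the base that differs in capitals.
YTHDF1: ttcatcatCaagagctactctgaggacg
YTHDF2: ttcatcatTaagagctactctgaggacg
Of the summed footprint level of the 3 readers per coding length, YTHDF1 made up 32.4% and 36.1% in the wild type, compared with 25.4% and 21.8% in the knockout. YTHDF3 made up 41.6% in both METTL5-WT libraries and 49.4% and 48.6% in METTL5-KO. Neither range overlapped between genotypes, whereas that of YTHDF2 did (26.0% and 22.3% against 25.2% and 29.6%). In input RNA per exon length the share of YTHDF1 was 40.7% and 41.6% in the wild type, compared with 32.3% and 33.4% in the knockout. With 2 values against 2, an exact permutation test cannot go below p = 0.333, so these shares are descriptions.

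TE was tested as the change of RPF beyond that of input, in a single limma model of all 8 libraries. One member, ALKBH5, fell and 0 rose. Of 11240 genes, 4.79% were called and 2.08% were called lower, and edgeR called 6.81% and 3.68% lower, so that 1 of 10 is near the background. At an unadjusted p under 0.05 there were 4 members (ALKBH5, WTAP, YTHDC1 and METTL16), beside 22.6% of all genes. The median of the members was 0.24, against 0.02 for all genes tested. Most members lay in classes of coding G and C content (described below) whose all-gene TE medians were 0.09 to 0.27. The part of base composition in the member median was not tested.

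The RPF to input ratio of ALKBH5, the nuclear demethylase, was 0.454 and 0.351 in the METTL5-WT lysates and 0.283 and 0.242 in the METTL5-KO lysates. The 2 genotypes did not overlap, as for 53.1% of all genes. The log2 fold change of TE was −0.61 ± 0.16 (limma adjusted p = 0.0365, edgeR 0.0181). With input and RPF of a lysate paired as a block the adjusted p was 0.0203. The call was lost without METTL5-WT replicate 1 (0.3004), METTL5-KO replicate 1 (0.0735) or METTL5-KO replicate 2 (0.274). By Pearson r of log2(value + 1) over the 8 libraries, the genes whose pattern was most like that of ALKBH5 were CERK (0.996), EN1 (0.995) and KANSL1 (0.995). In these 3 genes, as in ALKBH5, every input value was above every RPF value, and EN1 had 4.75 or fewer scaled footprints in each library.

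None of the 4 writers passed the test in TE (limma), 2 of them being among the 4 members at an unadjusted p under 0.05. WTAP was the member with the highest TE change. Its ratio was 0.442 and 0.409 in the wild type, compared with 0.603 and 0.637 in the knockout, a log2 fold change of 0.54 ± 0.18 (limma adjusted p = 0.0888, edgeR 0.097). METTL16 had ratios of 1.23 and 0.923 against 1.37 and 1.42, with a log2 fold change of 0.38 ± 0.18 (0.212). METTL3 gave −0.15 ± 0.19 (0.684) and METTL14 0.08 ± 0.30 (0.906), and the ratios of both overlapped between genotypes. Relative to METTL3, the footprint level of WTAP was 0.535 and 0.612 in the wild type, compared with 0.772 and 0.750 in the knockout, while its input level was 1.78 and 1.70 against 1.41 and 1.45.

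The readers and FTO did not pass the test in TE either. YTHDC1, one of the members that fell in input, had ratios of 1.24 and 1.56 in the wild type, compared with 1.89 and 1.99 in the knockout, with a log2 fold change of 0.48 ± 0.19 (limma adjusted p = 0.153). YTHDF2 gave 0.28 ± 0.21 (0.448), YTHDF3 0.24 ± 0.16 (0.395) and FTO 0.25 ± 0.18 (0.436). In each the METTL5-KO ratios were the higher without overlap, while 53.1% of all genes lacked overlap in one direction or the other. YTHDF1 had ratios of 0.923 and 0.974 against 1.08 and 0.855, with a log2 fold change of 0.02 ± 0.20 (0.972), so its lower footprints went with lower input of about the same size.

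**Figure D4:**
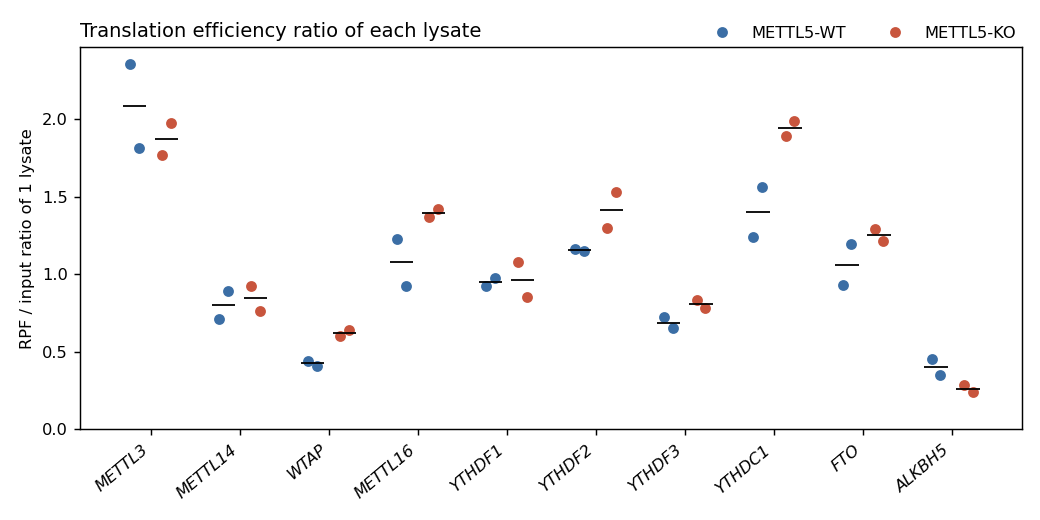
Ratio of scaled RPF reads to scaled input reads in each lysate for the 10 members; blue points are METTL5-WT lysates, red points METTL5-KO lysates, and bars are means of 2. ALKBH5 is lower in METTL5-KO (0.283 and 0.242 against 0.454 and 0.351), and WTAP has the highest TE change (0.603 and 0.637 against 0.442 and 0.409).

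TE changes in these libraries moved with base composition, and ALKBH5 stood apart from the other members in it. Its coding sequence was 63.4% G and C, in the ninth of 10 equal classes of genes, whose median TE log2 fold change was −0.31. YTHDF1 was at 56.4%, and the other 8 members were between 42.5% and 50.5%, in classes whose medians were 0.09 to 0.27. WTAP was at 46.9%, while METTL14, the lowest at 42.5%, had a TE log2 fold change of 0.08. The first 60 coding bases of the members with the lowest and the highest TE change are shown with G and C in capitals.
ALKBH5: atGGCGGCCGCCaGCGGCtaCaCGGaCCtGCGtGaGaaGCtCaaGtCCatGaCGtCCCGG
WTAP: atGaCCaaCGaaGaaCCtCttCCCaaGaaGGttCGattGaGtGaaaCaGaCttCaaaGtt
ALKBH5 has 40 and WTAP 25 G or C among these 60 bases (chr17:18184244-18184303, plus strand, exon 1, and chr6:159736266-159739019, plus strand, across exons 2 and 3). When the trend on coding GC content was removed from each library, the TE log2 fold change of ALKBH5 was −0.30 (limma adjusted p = 0.234) and that of WTAP 0.38 (0.222), and no member was called. In RPF, ALKBH5 remained called at −0.31 (0.0195) after the same step.

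**Figure D5:**
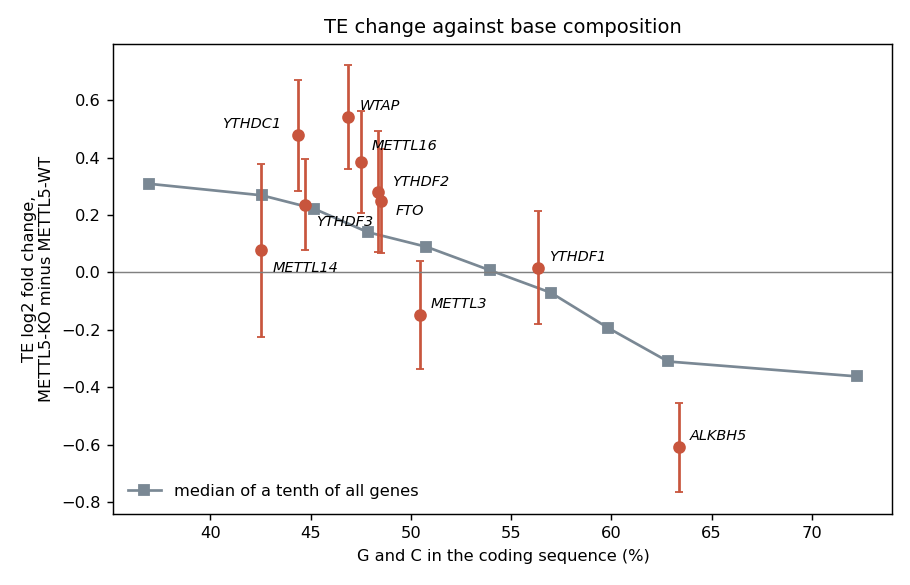
TE log2 fold change (METTL5-KO minus METTL5-WT) against the G and C content of the coding sequence (%); red points are members with 1 SE, and grey squares are medians of 10 equal classes of all genes, drawn at the middle of each class range. The class medians go from 0.31 to −0.36 with rising GC content, and ALKBH5 at 63.4% lies below its class median of −0.31.

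In the wider pathway, 36 further genes were examined: 5 partners of the writer complex, 10 other proteins that bind m6A or methylated messages, 11 subunits of the CCR4-NOT deadenylase, 6 enzymes of the methyl donor cycle and 4 other adenosine methyltransferases, METTL5 among them. In input, 5 of 36 fell and 0 rose (edgeR), beside 10.6% of all genes called lower and 11.8% called higher. With the GC trend removed, 7 were called lower and 3 higher there (IGF2BP3 at 0.35, CNOT2 at 0.26 and AHCYL1 at 0.25), with 25.9% of all genes called. In RPF 7 rose and 3 fell, and in TE 3 rose and 3 fell (limma), beside backgrounds of 16.2% higher and 13.1% lower in RPF and 2.7% and 2.08% in TE. METTL5, the gene removed in the knockout, is counted among those that fell in input, RPF and TE. Its fall is given by the design and says nothing of the pathway. The median of the 36 was −0.14 in input, 0.11 in RPF and 0.23 in TE. The number called moved with single libraries: in input it was 22 without METTL5-KO replicate 1, 12 without METTL5-KO replicate 2 and 2 without either METTL5-WT replicate, where 37.4%, 22.8% and 8.13% or 9.11% of all genes were called. In RPF it was 6 without METTL5-KO replicate 1 (17.7% of all genes), and in TE it was 4 without METTL5-WT replicate 2, 3 without replicate 1 of either genotype and 0 without METTL5-KO replicate 2, where 4 of all 11240 genes were called.

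Of the 5 writer partners, RBM15B, an adaptor that brings the complex to its targets, was the single gene called. It had 1249 and 1243 input counts in the wild type, compared with 1678 and 2101 in the knockout, and 395 and 468 footprints against 501 and 492 before scaling. Scaled for depth, RBM15B fell by 0.70 on the log2 scale in RPF (limma adjusted p = 0.00015) and by 0.96 in TE (0.00409), with −0.62 (0.0324) in TE after the GC trend was removed. VIRMA, the scaffold of the complex, gave 0.42 ± 0.17 in TE (0.145) and did not pass, nor did RBM15, ZC3H13 or CBLL1.

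Of the 10 other binding proteins, 2 fell in input, 3 rose and 1 fell in RPF, and 2 rose and 1 fell in TE. Over all genes, 10.6% were called lower in input. In RPF 16.2% were called higher and 13.1% lower, and in TE 2.7% and 2.08%. HNRNPA2B1, a nuclear RNA-binding protein linked to m6A, had 7918 and 12616 footprints in the wild type before scaling. In the knockout it had 34116 and 32779, from RPF libraries with more reads. Scaled for depth, its log2 fold change was −0.35 in input (edgeR adjusted p = 0.0333), 0.83 in RPF (limma 0.000212) and 1.17 in TE (0.00409). RBMX, which binds sites opened by m6A, rose by 0.77 in RPF (limma 0.00102) and 1.04 in TE (0.0131). In input it gave −0.28 (edgeR 0.0843), and −0.24 (0.0374) with the GC trend removed. RBMX is uncertain because near-identical copies of this gene exist, and their part in its reads was not tested. Both kept their TE calls after the GC trend was removed (0.0102 and 0.029). IGF2BP2 fell by 2.44 in input (edgeR adjusted p = 1.35e-06) and by 1.73 in RPF (limma 0.00373). Before scaling it had 12 and 17 footprints in the wild type, compared with 8 and 7 in the knockout. Its relative IGF2BP3 rose by 0.56 in RPF (0.0108), and PRRC2A fell by 0.47 in TE (0.0482), a call lost when the GC trend was removed (0.377).

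Of the 11 deadenylase subunits, CNOT1, the scaffold that YTHDF2 contacts, fell by 0.55 in input (edgeR adjusted p = 0.000994). CNOT1 lies on chromosome 16, where 18 of its 40 neighbours were called lower with a median of −0.42. CNOT9 rose by 0.50 in RPF (limma 0.0062) and CNOT2 by 0.40 (0.0342, but 0.0687 by edgeR). With the GC trend removed, CNOT9 stayed called (limma 0.00959) and CNOT2 did not (0.0643). CNOT1 gave −0.26 in RPF (limma 0.052), and was called lower there with that trend removed (−0.36, limma 0.0026). CNOT3 gave −0.38 in RPF (limma 0.0509), past the threshold by edgeR alone (−0.40, adjusted p = 0.0469). In TE 0 of 11 were called by limma or edgeR, with 3 of 11 at an unadjusted p under 0.05 by limma, near the 22.6% of all genes. In the methyl donor cycle, AHCY, which clears the product of methylation, fell by 0.34 in input (edgeR 0.0414) beside a neighbour median of −0.53 on chromosome 20. MAT2B rose by 0.52 (limma 0.0231) and ADK by 0.36 (0.0195) in RPF. Once the GC trend was removed, MAT2B stayed called there (limma 0.046), while ADK did not (0.24, adjusted p = 0.0649). In TE, ADK rose by 0.65 (limma 0.0269), which was 0.40 (0.125) with that trend removed. MAT2B gave 0.66 in TE (limma 0.102), and was called with the lysate as a block (0.0342) but not with the GC trend removed (0.28). MAT2A, whose message METTL16 methylates, gave −0.27 ± 0.11 in input (edgeR 0.0925), −0.06 ± 0.10 in RPF (limma 0.707) and 0.20 ± 0.14 in TE (0.408), none past the threshold. METTL5 itself was the only one of the 4 other methyltransferases called in any of the 3 comparisons, although edgeR also placed PCIF1, which methylates the cap-adjacent adenosine, past the threshold in RPF (adjusted p = 0.0416, limma 0.0585, log2 fold change −0.36).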

How the data were processed

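Input RNA and RPF libraries were measured from METTL5-WT and METTL5-KO cells labelled HepG2, and groups were taken from the sample titles. The authors mapped input reads on hg38 (STAR 2.7.3a), and the deposited counts are raw reads summed over exons by featureCounts (version 1.6.0 per the labels, 2.0.1 per the file header). The count table held 60718 genes, and 3 lines of a gene broken over lines were left out. RPF reads were processed by the authors with RiboToolkit. In the TE table the deposited signal, named RPKM by the authors, consisted of whole reads times a constant per library (100% whole within 0.01 reads). Columns with the authors' own fold change and p-values of TE were not used.

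For input, edgeR 4.0.16 was used with TMM factors, filterByExpr and its quasi-likelihood test. For RPF and TE, log2(value + 1) of the 8 libraries was fitted in limma 3.58.1 with a variance trend, keeping genes whose mean reached 1 in both library types, and edgeR was run on recovered reads beside it. Adjusted p-values are Benjamini-Hochberg over all genes tested, two-sided, and SE is that of the fit. DESeq2 1.42.0, R 4.3.3 and Python 3.11.15 were also used. Coding lengths, GC content and sequences were taken from GENCODE release 44 (99.8% of TE table genes matched). GC trends were removed by local regression (span 0.3). Scripts were tested on simulated data. In earlier simulations many limma calls of RPF were false, so edgeR was set beside limma. Of the pathway genes that limma called in RPF, edgeR called all but CNOT2. All 10 members were named in each comparison, and from each group of the pathway list the genes called in at least 1 comparison, at most 4 per group and comparison by smallest adjusted p. MAT2A, VIRMA and other uncalled genes were added after their values were seen. The members and lists were chosen with earlier results of these data known. Replicate numbers did not pair libraries across genotypes (correlation of deviations 0.04 in input and −0.00 in RPF). Input and RPF of a lysate share their source per the protocol, although their deviations correlated by only −0.02 in METTL5-WT and 0.05 in METTL5-KO.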

Additional observations from a re-analysis of the deposited data

How the results depend on the processing

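Without leaving out a library, 45 of the member values in input, 138 in RPF and 134 in TE kept direction and side of the threshold. In input 5 turned direction, in RPF 1 and in TE 3, and ALKBH5 lost its call in 1 RPF and 3 TE settings. METTL3 in input, near 0, turned to 0.00088 with RLE size factors, 0.0021 with DESeq2, 0.025 without a filter and 0.028 with the GC trend removed. Removing that trend also gave −0.0041 for ALKBH5 in input, −0.046 for YTHDC1 in RPF and −0.18 for METTL14 in TE (the same with the replicate block on the lysate), and quantile normalization gave −0.013 for YTHDF1 in TE. Leaving out libraries, with the lone one left assumed to vary like the others, values ran from −0.035 to 0.033 for METTL3 in input, −0.29 to 0.016 for METTL3, −0.066 to 0.23 for YTHDF2 and −0.13 to 0.24 for YTHDC1 in RPF, and −0.34 to 0.039 for METTL3, −0.085 to 0.24 for METTL14 and −0.15 to 0.18 for YTHDF1 in TE. Members called then numbered 1 to 8 in input, 1 to 2 in RPF and 0 to 1 in TE, and pathway genes 2 to 22, 6 to 8 and 0 to 4, while 8.13% to 37.4%, 17.7% to 24.7% and 0.0356% to 2.37% of all genes were called. Without a variance trend, 1 member and 5 pathway genes were called in RPF, beside 20.4% of all genes. In TE that setting called 0 and 0, and 1 of all genes. With the GC trend removed, 10 pathway genes were called in input, beside 25.9% of all genes. In TE the same step left 0 members called (2.36% of all genes), and 0 when the lysate block was added (3.57%). The replicate block on the lysate otherwise left ALKBH5 as the 1 member called in TE (limma adjusted p = 0.0203). It called 7 pathway genes, MAT2B added, beside 7.06% of all genes. A block on the number changed no member's call (3 in input, 2 in RPF, 1 in TE). edgeR on the 4 RPF libraries alone was chosen after seeing the data. Levels by exon length kept 2 of 10 places. METTL14, with 67 to 137 footprints, had the largest SE of the members in RPF (0.21) and TE (0.30).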
